A study of Rattus norvegicus with 84 samples.

Results

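The solute carriers are the genes with symbols of the form Slc, a family number, the letter a and a member number, and 163 of them were read here in the rat hippocampus. They were chosen by symbol in the array's probe annotation, without Slc19a3, Slc40a1, Slc1a2, Slc1a3 and Slc4a4, and a probe was kept if it was detected (detection p under 0.01) on at least 7 of the 84 arrays. The pattern matched 282 probes, 276 of them outside the excluded genes, and 113 of these were too dim to be kept. Each of the 163 genes was read by 1 probe, among 22523 probes on the array and 11403 that passed the same filter. Detection on all 84 arrays was found for 76 members, and 16 members had no detected array in at least 1 region. A member that passed only through the region where it is high had to differ between regions, so counts over the members describe those that passed and not the whole superfamily.

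Solute carriers move amino acids, sugars, ions, metals, nucleotides and vitamins across the plasma membrane, synaptic vesicles and the membranes of organelles. Many couple the movement of their substrate to the gradients of sodium, protons or chloride that ion pumps set up, others exchange 1 substrate for another. In the hippocampus they load glutamate and zinc into synaptic vesicles, clear transmitters after release, supply neurons and glia with fuel and set the chloride and calcium content of the cell. Neurons, astrocytes, oligodendrocytes and endothelial cells express different sets of them.

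RNA came from 28 male F344xBN rats aged 7 months. Each rat gave 3 microdissected samples labelled CA3, CA1 and DG (dentate gyrus). There were 4 treatments with 7 rats each. SAHA RPC rats received 50 mg/kg of SAHA (an inhibitor of histone deacetylases) in DMSO, then swam in a water maze session with both a visible and a hidden platform, which the labels call RPC. Vehicle RPC rats received DMSO and swam. SAHA HC and vehicle HC rats received the same injections and stayed in the home cage (HC). RPC rats had 8 days of maze training a week earlier and HC rats had none, so the comparison of RPC with HC includes that training. The 17 trials started 10 min after the injection and a 60 s probe trial closed the session. Death followed 90 min after the injection in every group. Levels are quantile-normalised log2 intensities after background correction, and a member was called at a Benjamini-Hochberg adjusted p under 0.05 over all probes of the fit (limma).

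The region labels went against cell type markers. Of 6 markers of CA1 neurons, 5 were lower in labelled CA1 than labelled DG: Wfs1 averaged 6.86 ± 0.77 in labelled CA1 and 10.65 ± 0.29 in labelled DG (log2, SD, n = 28 each), and Fibcd1 was detected on 0 arrays of labelled CA1 and on all 28 of labelled DG. Prox1, a marker of dentate granule cells, was detected on all 28 arrays of labelled CA1 and on 4 of labelled DG. Regions are therefore named by their labels only, and no value below assigns a gene to a subfield. Of the 84 arrays, 10 stood apart from the rest of their region by their correlation (7 from labelled CA3, 3 from labelled CA1 and none from labelled DG). All 7 in labelled CA3 came from RPC rats, so RPC differences of that region are given with all arrays and, where a gene is named for it, without those that stand apart. The share of probes detected ran from 35.35 to 49.98% over all arrays. In tissue samples, fewer cells of a type and less RNA per cell cannot be told apart.

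Differences between regions were common among the solute carriers and about as common among all probes. Labelled CA3 against labelled CA1 gave 129 called members of 163 (72 higher, 57 lower), or 79.1%, against 80.7% of all probes (40.8% higher, 39.9% lower). Labelled CA3 against labelled DG gave 115 (48 higher, 67 lower), or 70.6%, against 75.4% of all probes (39.3% higher, 36.1% lower). Labelled CA1 against labelled DG gave 121 (46 higher, 75 lower), or 74.2%, against 72.4% of all probes (36.3% higher, 36.1% lower). These shares lie near the background and say nothing particular about transporters. The median difference over the members was 0.041, -0.043 and -0.096 for the 3 comparisons in that order, and over all probes 0.005, 0.019 and 0.002.

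The split into higher and lower depends on the scaling. With arrays scaled to their medians in place of quantile normalisation, the median of all probes moved to 0.381 (labelled CA3 minus CA1), 0.196 (CA3 minus DG) and -0.195 (CA1 minus DG). The called members then split into 103 higher and 34 lower, 75 and 50, and 20 and 102. With the authors' z-scores, labelled CA1 against DG split into 30 higher and 91 lower. None of the 48 largest differences between regions (8 in each direction of each comparison) changed direction or lost its call under any alternative. Those of Slc4a11 are among the 48, and this member passed the filter only through labelled CA1 and had to differ.

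**Figure D1:**
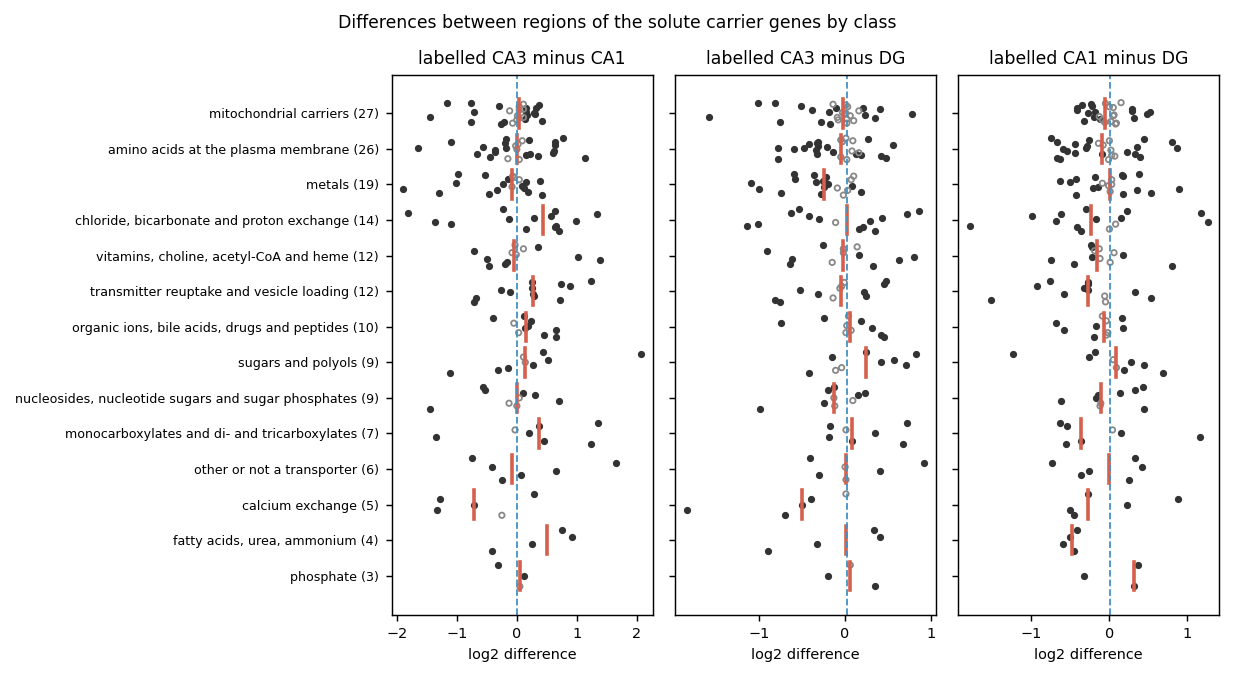
Log2 differences between regions (x axis) of the 163 members, grouped by class (y axis, number of members in brackets). Filled points were called, open points were not, red bars are class medians and the dashed blue line is the median of all probes tested. Calcium exchangers sit left of the line in labelled CA3 minus CA1 (median -0.72) and the 27 mitochondrial carriers cluster near it (median 0.04).

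By region, 40 members were highest in labelled CA3 against both other regions, 32 in labelled CA1 and 31 in labelled DG, or 24.5, 19.6 and 19% of the members against 26.9, 23.3 and 16.6% of all probes. A further 60 members had no region above both others, or 36.8% against 33.2% of all probes. Among the 27 mitochondrial carriers, 20 had no such region, while all but 1 of the 14 chloride, bicarbonate and proton exchangers had one (7 in labelled CA3, 4 in labelled DG, 2 in labelled CA1). Of these exchangers, Slc4a11 was detected on 1, 20 and 0 arrays of labelled CA3, labelled CA1 and labelled DG, and Slc9a8 on 1, 0 and 23. They passed the filter only through the region where they are high and had to differ, so the exchanger count is partly set by the filter.

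**Figure D2:**
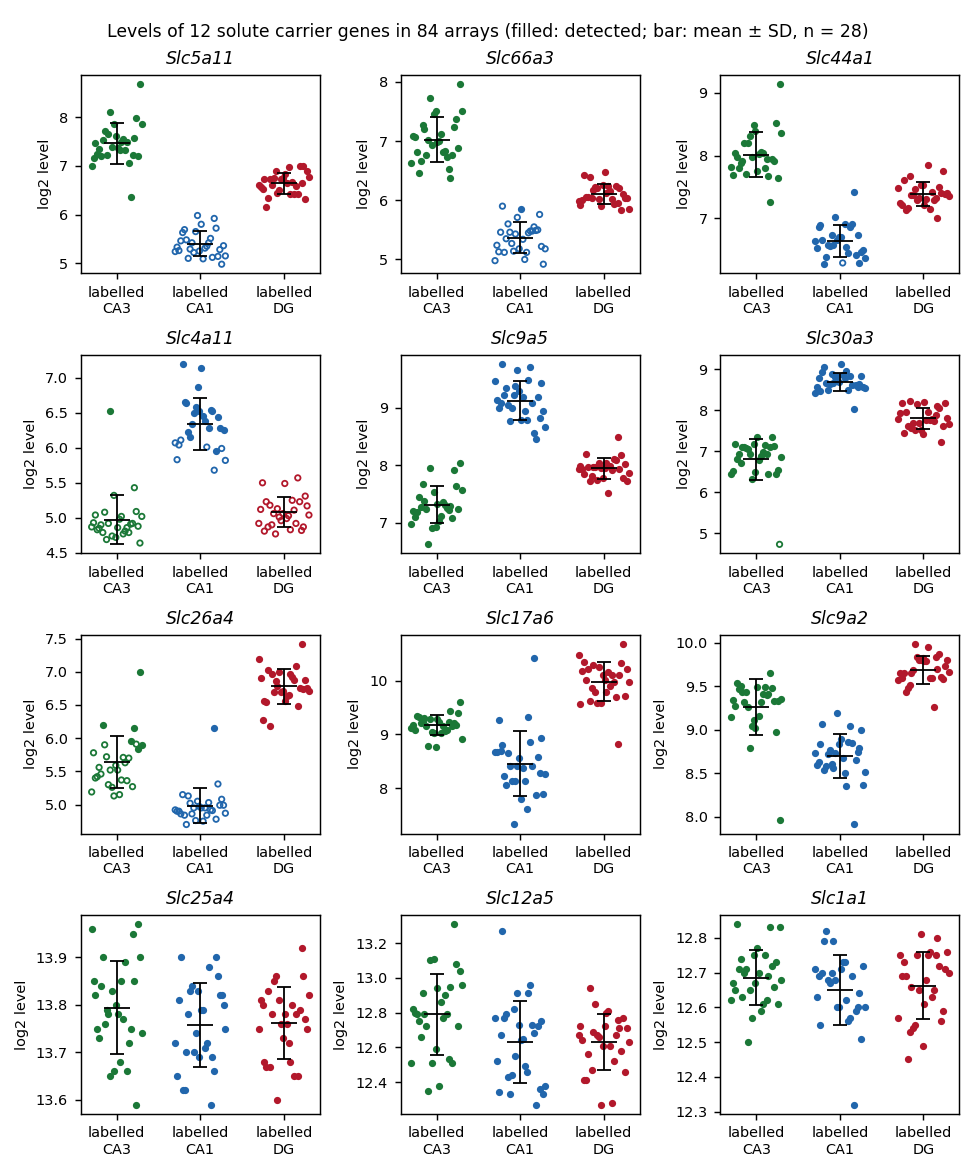
Log2 levels (y axis) of 12 members on the 84 arrays by region label (x axis). Filled points are detected, open points are not, and bars are means ± SD over 28 arrays. Slc5a11, Slc66a3 and Slc44a1 are highest in labelled CA3, Slc4a11, Slc9a5 and Slc30a3 in labelled CA1, Slc26a4, Slc17a6 and Slc9a2 in labelled DG, and Slc25a4, Slc12a5 and Slc1a1 differ by 0.16 or less.

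Of the 12 members that load or take up transmitters and related compounds, 8 were higher and 4 lower for labelled CA3 than for labelled CA1. With median scaling 9 were higher and 1 lower, and of all probes 40.8% were higher and 39.9% lower. Among the higher members, Slc6a13 was detected on 1 array of labelled CA3 and 0 of labelled CA1, Slc18a3 on 10 and 0, and Slc6a5 on 8 and 2. The vesicular glutamate transporters went in different directions. Slc17a6 (VGLUT2) had a median level of 9.18 in labelled CA3 (8.77 to 9.61), of 8.41 in labelled CA1 (7.32 to 10.42) and of 10.01 in labelled DG (8.83 to 10.69). The ranges of the 3 regions overlap, although labelled DG is highest and labelled CA1 lowest by median. Labelled CA1 was lower than labelled DG by 2.87-fold (log2 difference -1.52 ± 0.11 SE, adjusted p = 6.07e-21). Slc17a7 (VGLUT1) ran the other way, with medians of 8.88 in labelled CA3, 9.82 in labelled CA1 and 9.12 in labelled DG. It was 1.45-fold higher in labelled CA1 than labelled DG (0.54 ± 0.10, adjusted p = 4.17e-06), and labelled CA3 and labelled DG did not pass the test (-0.14, adjusted p = 0.213).

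Slc6a9, the glycine transporter GlyT1, was highest in labelled CA3, with a median of 9.77 (8.73 to 10.18), against 8.45 in labelled CA1 (7.92 to 9.09). It was 2.35-fold higher there than in labelled CA1 (adjusted p = 2.16e-28) and 1.39-fold higher than in labelled DG (adjusted p = 2.57e-09). Slc6a6, which carries taurine, had a median of 8.96 in labelled CA3, 8.04 in labelled CA1 and 9.12 in labelled DG. Labelled CA1 was the low region: labelled CA3 exceeded it by 1.84-fold (adjusted p = 2.77e-22), and labelled CA3 and labelled DG differed by -0.04 ± 0.06. The creatine carrier Slc6a8 had the same order at smaller size (0.26 for labelled CA3 minus CA1 and -0.27 for labelled CA1 minus DG). Slc6a7, which carries proline, was 1.66-fold higher for labelled CA3 than for labelled CA1. Slc6a15, a carrier of neutral amino acids, was 1.25-fold higher in labelled CA1 than labelled DG.

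Oligodendrocyte markers moved with these differences. In labelled CA3 against labelled CA1, 6 of 7 were higher (median 1.47), in labelled CA1 against labelled DG 7 of 7 were lower (median -1.51), and their summed linear level ran from 14526 to 39521 in labelled CA3, from 6354 to 19527 in labelled CA1 and from 17228 to 36844 in labelled DG. Interneuron markers were higher for labelled CA3 than for labelled CA1 (6 of 7, median 0.62), and so were the tested thalamus markers (4 of 4, median 0.69), with Tnnt1 at 0 detected arrays in labelled CA1 and 28 in labelled CA3. Of 8 choroid plexus markers, 1 (Ttr) passed the filter, and Clic6, Kcne2 and Kl were detected on no array. The summed level of the 8 ran from 245 to 12901 in labelled CA3 (median 382), from 230 to 436 in labelled CA1 and from 248 to 711 in labelled DG. Of all probes, 40.8% were higher in labelled CA3 than labelled CA1, and 36.1% were lower in labelled CA1 than labelled DG. The part of these cells in the regional differences of the solute carriers was not tested.

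The 26 members classed as amino acid carriers of the plasma membrane include Slc7a14 of lysosomes and were called in both directions. In labelled CA3 10 were higher and 10 lower than in labelled CA1 (15 and 6 with median scaling), beside 40.8 and 39.9% of all probes. Against labelled DG 6 were higher and 12 lower (10 and 10 with median scaling), beside 39.3 and 36.1% of all probes. Slc1a1, the neuronal glutamate and cysteine carrier EAAT3, was among the members with no called difference, with medians of 12.68 in labelled CA3, 12.67 in labelled CA1 and 12.68 in labelled DG. Slc3a1, which pairs with a light chain to carry cystine and basic amino acids, was 3.14-fold lower for labelled CA3 than for labelled CA1. Its values ran from 5.84 to 8.01 in labelled CA3 and from 8.02 to 9.74 in labelled CA1, so the 2 regions did not overlap. Slc7a14, found in lysosomes, was 2.15-fold lower in labelled CA3 than labelled CA1. Slc3a2, the heavy chain shared by several amino acid exchangers, was lower for labelled CA3 than for labelled DG (1.39-fold, adjusted p = 7.46e-28, but 0.02 with adjusted p = 0.642 under median scaling), while its partner Slc7a5 (LAT1) differed by -0.05 (adjusted p = 0.577).

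Slc1a5, a carrier of glutamine and other neutral amino acids, was detected on 27 arrays of labelled CA3, 0 of labelled CA1 and 23 of labelled DG. It was at least 1.27-fold higher in labelled CA3 than labelled CA1 (adjusted p = 5.42e-25). Slc7a7, which carries basic and neutral amino acids, was detected on 9, 0 and 14 arrays of labelled CA3, labelled CA1 and labelled DG. It was called lower for labelled CA1 than for labelled DG (adjusted p = 1.06e-13), with a size that has no bound above 1. Slc38a3, a glutamine transporter of astrocytes, was 1.51-fold higher in labelled CA3 than labelled CA1 (adjusted p = 1.41e-08). The related Slc38a2 was higher by 0.22 ± 0.04 on the log2 scale. Slc1a4, which exchanges alanine, serine and cysteine, was lower in both labelled CA3 and labelled CA1 than in labelled DG, by 1.71-fold and 1.54-fold. Slc7a11, the cystine and glutamate exchanger, was detected on 22 of 84 arrays.

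Among the 9 sugar and polyol carriers, those of myo-inositol split. Slc5a11, a sodium-coupled myo-inositol carrier, had a median of 7.43 in labelled CA3 (6.35 to 8.69), of 5.34 in labelled CA1 (4.98 to 5.98) and of 6.64 in labelled DG (6.16 to 7.00). All 28 arrays of labelled CA3 lay above all of labelled CA1, where no array detected it. It was at least 2.60-fold higher for labelled CA3 than for labelled CA1 (adjusted p = 1.13e-36). The related Slc5a3 was also highest in labelled CA3, by 1.34-fold over labelled CA1. In contrast the proton-coupled carrier Slc2a13 was 2.16-fold lower in labelled CA3 than labelled CA1 (adjusted p = 4.63e-27) with no overlap of the arrays. It was detected on 1 array of labelled CA3 and 27 of labelled CA1, so the fold is set against levels mostly not above background. The neuronal glucose transporter Slc2a3 (GLUT3) was detected on 56 of 84 arrays and was lower for labelled CA3 than for labelled CA1 (log2 difference -0.31).

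Of the 7 carriers of monocarboxylates and of di- and tricarboxylates, 5 were higher and 1 lower in labelled CA3 than labelled CA1. Beside them, 40.8% of all probes were higher and 39.9% lower. Slc16a1 (MCT1), which carries lactate, pyruvate and ketone bodies, was 1.37-fold higher (0.45 ± 0.04, adjusted p = 3.43e-18). Slc16a6 was 2.57-fold and the dicarboxylate carrier Slc13a3 2.34-fold higher. Slc16a11 was the member that was lower: its median was 5.99 in labelled CA3 (4.93 to 7.08), 7.37 in labelled CA1 (6.91 to 8.14) and 6.31 in labelled DG. The ranges of labelled CA3 and labelled CA1 overlap between 6.91 and 7.08, and the difference was 2.56-fold (adjusted p = 3.87e-23).

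The 14 chloride, bicarbonate and proton exchangers had a median size of difference of 0.65 in labelled CA3 against CA1, compared with 0.309 over all members. Of the 14, 9 were higher and 5 lower, beside 40.8% of all probes higher and 39.9% lower. Among these exchangers are members that passed the filter only through the region where they are high, so the filter has a part in that size. Slc26a4 (pendrin), which exchanges chloride with iodide or bicarbonate, had a median of 5.57 in labelled CA3 (5.13 to 6.99), 4.94 in labelled CA1 (4.70 to 6.15) and 6.76 in labelled DG (6.18 to 7.42). Every array of labelled CA1 lay below every array of labelled DG. It was detected on 6 arrays of labelled CA3, 1 of labelled CA1 and 28 of labelled DG, so the folds are set against levels mostly not above background. Labelled CA1 was 3.47-fold lower than labelled DG (-1.79 ± 0.08, adjusted p = 3.69e-34), and labelled CA3 was 2.21-fold lower than labelled DG. Slc9a2, a sodium-proton exchanger, was 1.99-fold lower for labelled CA1 than for labelled DG (adjusted p = 3.11e-23), also without overlap.

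Other sodium-proton exchangers had other patterns. Slc9a5 had medians of 7.27 in labelled CA3 (6.62 to 8.03), 9.11 in labelled CA1 (8.45 to 9.77) and 7.95 in labelled DG. Labelled CA3 was 3.51-fold lower than labelled CA1 (adjusted p = 6.38e-36) and the arrays of the 2 regions did not overlap. Slc9a3 was detected on 20 arrays of labelled CA3, 0 of labelled CA1 and 8 of labelled DG and was at least 1.12-fold higher in labelled CA3 than labelled CA1. Slc9a7, found in the trans-Golgi network, was 1.81-fold higher for labelled CA3 than for labelled DG.

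Slc4a11, of the bicarbonate transporter family, was detected on 1 array of labelled CA3, 20 of labelled CA1 and 0 of labelled DG. Its level in labelled CA1 was at least 1.56-fold above that of labelled DG (adjusted p = 1.27e-23). Slc4a11 passed the filter only through labelled CA1 and had to differ, so that p-value adds no support. Slc4a10, a sodium-dependent bicarbonate carrier of neurons, was lower in labelled CA3 than in both labelled CA1 (2.14-fold) and labelled DG (2.02-fold). Slc12a5 (KCC2), which extrudes chloride from neurons, had medians of 12.79 in labelled CA3, 12.66 in labelled CA1 and 12.66 in labelled DG. Its differences were small (0.16 against each region for labelled CA3, adjusted p = 0.0067 both times), and neither passed without the arrays that stand apart (0.10 and 0.06).

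Of the 5 calcium exchangers, 1 was higher and 3 lower in labelled CA3 than labelled CA1 (the same counts with median scaling), beside 39.9% of all probes lower. None was higher and 4 were lower than in labelled DG (3 with median scaling), beside 36.1% of all probes lower. Slc24a3, an exchanger of sodium against calcium and potassium, was detected on 10 arrays of labelled CA3, 24 of labelled CA1 and 28 of labelled DG and had medians of 5.34 in labelled CA3 (4.65 to 6.93), 7.10 in labelled CA1 (4.91 to 7.73) and 7.38 in labelled DG (6.70 to 7.74). Labelled CA3 and labelled DG overlapped little and differed by 3.58-fold (-1.84 ± 0.18, adjusted p = 2.02e-15), a fold set against levels mostly not above background in labelled CA3. Slc24a4 was 1.65-fold lower in labelled CA3 than labelled CA1 and 1.41-fold lower than in labelled DG, with no overlap in either comparison. The sodium-calcium exchanger Slc8a2 (NCX2) was 2.43-fold lower for labelled CA3 than for labelled CA1, whereas Slc8a3 (NCX3) was 0.29 higher on the log2 scale, and its difference from labelled DG was 0.01.

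Of the 19 metal carriers, 2 were higher and 12 lower in labelled CA3 than labelled DG, or 6 and 8 with median scaling. Beside them, 39.3% of all probes were higher and 36.1% lower. Slc39a6 was detected on 3 arrays of labelled CA3, 1 of labelled CA1 and 28 of labelled DG. It passed the filter only through labelled DG and had to differ, so the filter has a part in that count. Slc30a3 (ZnT3), which fills synaptic vesicles with zinc, had medians of 6.93 in labelled CA3 (4.73 to 7.36), 8.66 in labelled CA1 (8.03 to 9.14) and 7.78 in labelled DG (7.23 to 8.24). Labelled CA3 lay entirely below labelled CA1, by 3.71-fold (-1.89 ± 0.09, adjusted p = 7.09e-31), and it lay below labelled DG by a log2 difference of -1.0 (adjusted p = 7.71e-16). Slc30a1 (ZnT1), which exports zinc from the cell, was detected on 0 arrays of labelled CA3, 24 of labelled CA1 and 28 of labelled DG. It was lower for labelled CA3 than for labelled CA1 by at least 1.73-fold (adjusted p = 1.05e-25). Slc39a10, a zinc importer, was 2.01-fold lower in labelled CA3 than labelled CA1 and 2.13-fold lower than in labelled DG. Slc39a13, a zinc carrier of the secretory pathway, was 1.56-fold lower for labelled CA1 than for labelled DG (adjusted p = 6.82e-25), without overlap.

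Mitochondrial carriers (27 members) differed little: the median size of the difference was 0.17 for labelled CA3 against CA1, 0.18 against DG and 0.19 for labelled CA1 against DG, compared with 0.327 over all probes for the first of these and 0.309 over all members. Slc25a4, the ADP and ATP carrier ANT1, had medians of 13.79, 13.76 and 13.77 in labelled CA3, labelled CA1 and labelled DG, and no difference was called. Slc25a23 stood out, with a median of 7.16 in labelled CA3 (4.64 to 8.06), 8.63 in labelled CA1 (7.00 to 9.14) and 8.72 in labelled DG (8.21 to 8.98). This calcium-regulated carrier of ATP-magnesium and phosphate was 3.00-fold lower in labelled CA3 than labelled DG (adjusted p = 1.52e-18). Slc25a52 and Slc25a51, the second of which carries NAD in humans, were 2.01-fold and 1.75-fold lower there. Both names belong to closely similar genes in humans, and whether their probes tell them apart was not tested. Slc25a27 (UCP4) was 1.72-fold higher for labelled CA3 than for labelled DG (adjusted p = 1.68e-26). The direction of the group as a whole turned with the scaling: 5 higher and 10 lower in labelled CA3 than labelled DG became 15 and 8 with median scaling.

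In the remaining groups a few members carried the differences. Slc28a2, which takes up purine nucleosides with sodium, was 2.72-fold lower for labelled CA3 than for labelled CA1 (adjusted p = 2.42e-35) and 1.99-fold lower than in labelled DG. The choline carrier Slc44a1 was 2.60-fold higher in labelled CA3 than labelled CA1 (median 7.96 against 6.61). Slc44a4, which carries thiamine pyrophosphate, was detected on 28 arrays of labelled CA3, 0 of labelled CA1 and 12 of labelled DG, and labelled CA3 exceeded labelled CA1 by at least 1.32-fold. Slc19a1, the reduced folate carrier, was 1.74-fold higher for labelled CA1 than for labelled DG (adjusted p = 3.06e-20), with no overlap. All 4 members that carry fatty acids or urea were lower in labelled CA1 than labelled DG (Slc27a4 by 1.33-fold), beside 36.1% of all probes. The urea carrier Slc14a1 was detected on 0 arrays of labelled CA3, 0 of labelled CA1 and 19 of labelled DG. It passed the filter only through labelled DG and had to differ, so the filter has a part in that count. Slc66a3 was 3.15-fold higher for labelled CA3 than for labelled CA1 (median 7.00 against 5.39), where 28 and 1 arrays detected it. That fold is also set against levels mostly not above background. Of the 10 carriers of organic ions and peptides, 7 were higher and 1 lower in labelled CA3 than labelled CA1, by sizes of 0.66 or less. Beside them, 40.8% of all probes were higher and 39.9% lower. In labelled CA1 Slc10a6 was detected on 4 arrays and Slc15a3 on 6, against 28 and 26 in labelled CA3. Among the 3 phosphate carriers Slc20a2 was 0.37 higher for labelled CA1 than for labelled DG.

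The pumps that build the gradients and the proteins that partner with solute carriers were read beside them. Of 20 tested ion pump genes, 15 were higher and 3 lower in labelled CA3 than labelled CA1 (median 0.20), among them the calcium pump Atp2a2 at 0.60 and the lower Atp2b2 at -0.72. Of 16 tested partners and regulators, 10 were higher and 3 lower (median 0.27), with the kinase Sgk1 at 1.21 and Txnip, a regulator of glucose uptake, at 1.19. ABC transporters and other transporters outside the Slc symbols were mixed (13 higher and 10 lower of 30, median 0.05), with the water channel Aqp4 at -1.49. Of all probes, 40.8% were higher and 39.9% lower in labelled CA3 than labelled CA1. That split depends on the scaling, and no median-scaled counts are given for these lists.

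The water maze changed single carriers by small amounts. In labelled CA1, averaged over drug, 10 of 130 tested members were called with RPC against HC (4 higher, 6 lower), or 7.69%, against 13.7% of all probes (6.42% higher, 7.31% lower). In labelled DG 7 of 158 were called (3 higher, 4 lower), or 4.43%, against 4.05% of all probes (2.99% higher, 1.06% lower). In labelled CA3 none of 146 was called, against 0.123% of all probes. An unadjusted p under 0.05 was found for 34 of these 146, beside 2102 of 10594 probes. The share of members called was below that of all probes in labelled CA1 and near it in labelled DG. Across labelled CA1 and labelled DG 16 members were called in at least 1 region, and 1 of them, Slc25a25, in both.

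**Figure D3:**
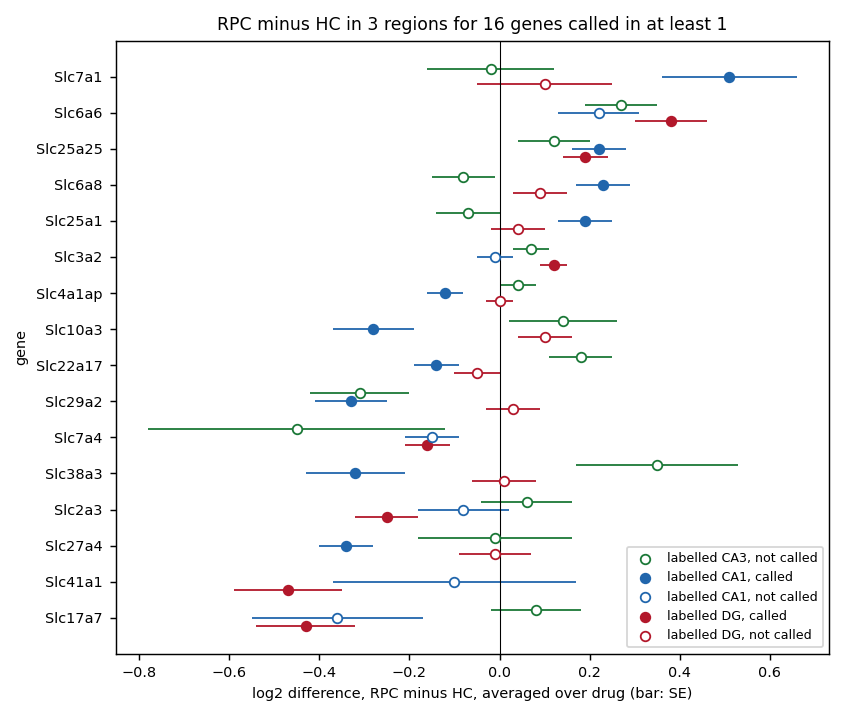
Log2 difference of RPC minus HC averaged over drug (x axis, bars are SE) for the 16 members called in labelled CA1 or labelled DG (y axis), in 3 regions. Filled points were called. Slc25a25 is called in labelled CA1 (0.22) and labelled DG (0.19), and Slc38a3 lies at 0.35 in labelled CA3, where it is -0.18 without the 7 arrays that stand apart, and at -0.32 in labelled CA1.

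Slc25a25, a calcium-regulated mitochondrial carrier of ATP-magnesium and phosphate, ran from 10.77 to 11.25 in RPC rats and from 10.52 to 11.17 in HC rats in labelled CA1 (medians 10.94 and 10.70, n = 14 each). All 14 RPC values lay above the HC mean, though the ranges overlap. It was higher with RPC by 0.22 ± 0.06 (1.17-fold, adjusted p = 0.0149). In labelled DG it ran from 10.71 to 11.05 in RPC rats and from 10.51 to 10.96 in HC rats, again with all 14 RPC values above the HC mean, and rose by 0.19 ± 0.05 (adjusted p = 0.0194). Median scaling ended both calls, and the rat as a replicate block also ended that in labelled DG (highest adjusted p of any alternative 0.0829 in labelled CA1 and 0.192 in labelled DG). In labelled CA3 the difference was 0.12 ± 0.08 (adjusted p = 0.381), and -0.04 without the 7 arrays that stand apart. The F test of whether the effect differs among regions gave an adjusted p of 0.679 with all arrays and 0.0417 without those that stand apart.

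The letters of the promoters are printed for the risers that were called in both regions or kept their call under every alternative, to show whether they hold motifs that respond to signals of neuronal activity or of amino acid supply. Each is the 250 bases before the annotated start in RefSeq (rat build GRCr8), 5′ to 3′ on the strand of the gene. Capitals mark the searched motifs, on both strands: TGACGTCA (the cAMP response element), its partial site TGACG, which lies within it, TGATGNAA (the C/EBP-ATF response element) and CACGTG (an E-box).
Slc25a25, chr3:36116582-36116831, minus strand: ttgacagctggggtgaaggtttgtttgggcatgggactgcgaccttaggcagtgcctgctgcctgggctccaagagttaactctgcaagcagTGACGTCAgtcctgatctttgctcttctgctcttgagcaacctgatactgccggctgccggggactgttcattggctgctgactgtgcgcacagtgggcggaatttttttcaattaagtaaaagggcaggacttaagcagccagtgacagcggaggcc
Slc6a6, chr4:125752252-125752501, plus strand: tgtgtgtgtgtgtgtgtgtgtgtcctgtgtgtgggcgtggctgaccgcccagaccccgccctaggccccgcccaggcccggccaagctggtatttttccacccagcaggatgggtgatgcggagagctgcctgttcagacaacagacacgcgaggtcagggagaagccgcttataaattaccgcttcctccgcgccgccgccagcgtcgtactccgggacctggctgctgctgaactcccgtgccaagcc
Slc6a8, chrX:156535767-156536016, plus strand: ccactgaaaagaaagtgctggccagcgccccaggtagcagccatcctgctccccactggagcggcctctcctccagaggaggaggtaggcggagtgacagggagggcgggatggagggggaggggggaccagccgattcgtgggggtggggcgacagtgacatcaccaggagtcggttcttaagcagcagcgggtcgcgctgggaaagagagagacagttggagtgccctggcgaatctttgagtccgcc
Slc7a1, chr12:11664238-11664487, plus strand: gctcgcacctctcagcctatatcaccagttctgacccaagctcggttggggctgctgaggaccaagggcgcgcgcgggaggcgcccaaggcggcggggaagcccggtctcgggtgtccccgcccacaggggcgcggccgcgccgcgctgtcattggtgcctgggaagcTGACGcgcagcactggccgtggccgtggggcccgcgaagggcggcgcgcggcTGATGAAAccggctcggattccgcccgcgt

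The Slc25a25 stretch holds 1 complete cAMP response element, at -158 to -151 from the start. Among 33469 promoters of this length, 1.59% hold one, and among the 132 members with a listed promoter 4 do (Slc25a25, Slc38a6, Slc45a1 and Slc46a1, or 3.03%). Slc7a1 holds a TGACG at -82 to -78 and a TGATGNAA at -30 to -23. TGACG is found in 18.2%, TGATGNAA in 3.40% and CACGTG in 5.59% of all promoters, against 23.5, 3.03 and 14.4% of the members'. The stretches of Slc6a6 and Slc6a8 hold none of the motifs searched. A match is a stretch of letters in this window and was not tested for binding.

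Slc6a6, the taurine carrier, was the called riser with the smallest p in labelled DG. It ran from 8.68 to 9.51 in RPC rats and from 8.11 to 9.21 in HC rats (medians 9.23 and 8.80), and 13 of 14 RPC values exceeded the HC mean. The difference was 0.38 ± 0.08 (1.30-fold, adjusted p = 0.00679). By drug, it was 0.54 ± 0.12 in SAHA rats (adjusted p = 0.0114), where the levels were 9.15 ± 0.21 in SAHA RPC and 8.62 ± 0.33 in SAHA HC, and the means were 9.21 ± 0.14 in vehicle RPC and 8.99 ± 0.20 in vehicle HC (SD, n = 7 each). The differences in the other regions were positive and missed the threshold, at 0.27 ± 0.08 in labelled CA3 (adjusted p = 0.149, and 0.13 without the arrays that stand apart) and 0.22 ± 0.09 in labelled CA1 (adjusted p = 0.102).

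Other risers were carriers of creatine, amino acids and citrate. Slc6a8 in labelled CA1 ran from 10.03 to 10.68 in RPC rats and from 9.67 to 10.23 in HC rats, with all 14 RPC values above the HC mean (0.23 ± 0.06, adjusted p = 0.0145). Slc7a1 (CAT1), which takes up arginine and lysine, ran from 6.45 to 7.38 in RPC rats and from 5.58 to 7.21 in HC rats there. It was detected on 14 RPC arrays and 8 HC arrays, and the difference of 0.51 ± 0.15 (1.43-fold, adjusted p = 0.0268) was the largest called rise averaged over drug. Slc6a6 in labelled DG and Slc6a8 and Slc7a1 in labelled CA1 were the members whose averaged call no alternative ended. The citrate carrier Slc25a1 rose by 0.19 in labelled CA1 (adjusted p = 0.0426, and 0.112 at the highest over the alternatives). In labelled DG the heavy chain Slc3a2 rose by 0.12 ± 0.03, with levels of 12.29 ± 0.08 in RPC rats and 12.16 ± 0.09 in HC rats (SD, n = 14 each, adjusted p = 0.033). Its call ended under 5 of 7 alternatives.

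**Figure D4:**
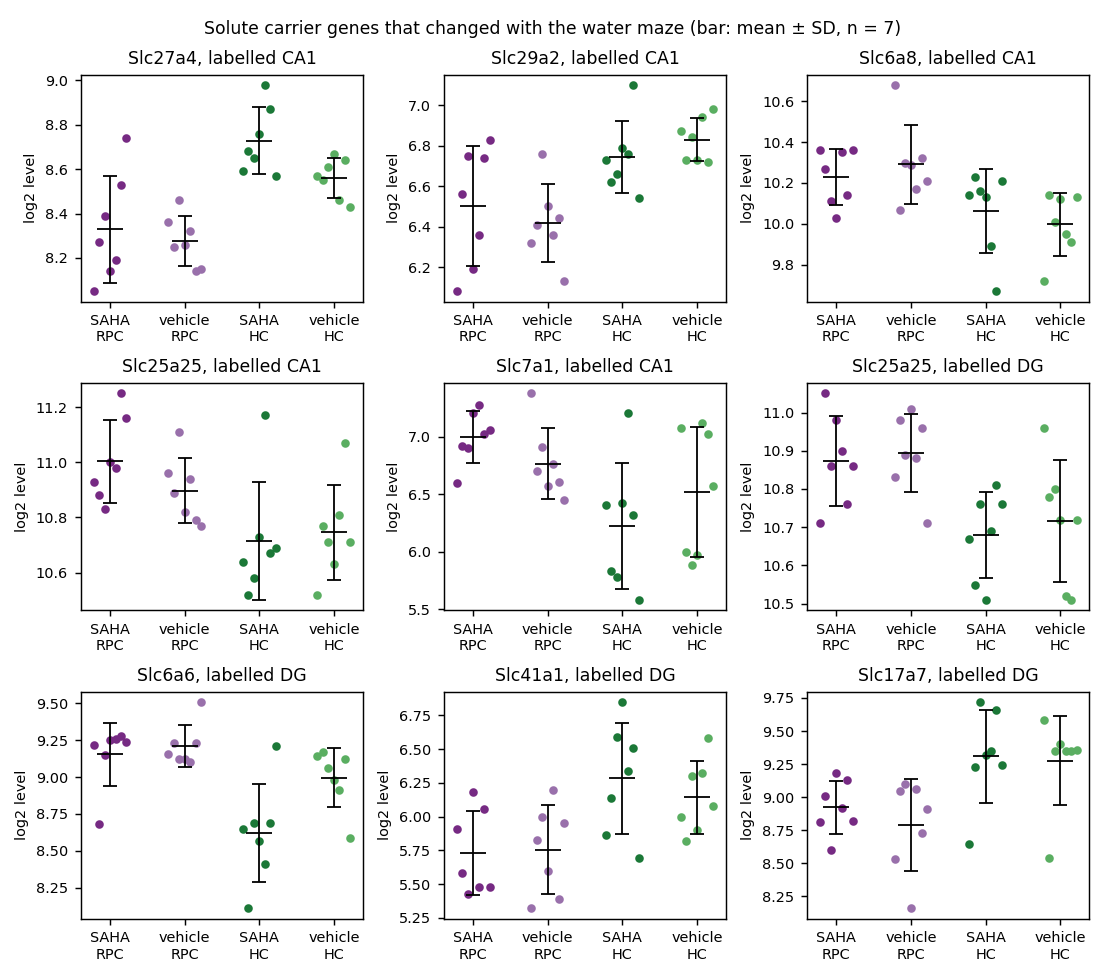
Log2 levels (y axis) of 8 members called with RPC, 5 in labelled CA1 and 4 in labelled DG (Slc25a25 in both), by treatment group (x axis). Points are arrays and bars are means ± SD over 7 arrays. Slc27a4 has 1 SAHA RPC array at 8.74, among the HC values, and the other RPC arrays lie at 8.53 or lower.

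The smallest p among the maze differences of the members averaged over drug was for a fall. Slc27a4, a fatty acid carrier and acyl-CoA synthetase, ran from 8.05 to 8.74 in RPC rats and from 8.43 to 8.98 in HC rats of labelled CA1. Of the 14 RPC values, 11 lay below every HC value, and the level fell by 0.34 on the log2 scale (SE 0.06, adjusted p = 0.000832). It also passed in SAHA rats alone (-0.40 ± 0.09, adjusted p = 0.0129). Its differences were -0.01 in labelled CA3 (-0.02 without the arrays that stand apart) and -0.01 in labelled DG. Slc29a2 (ENT2), which carries nucleosides, ran from 6.08 to 6.83 in RPC rats and from 6.54 to 7.10 in HC rats of labelled CA1, and fell by 0.33 (adjusted p = 0.00791). Median scaling ended both averaged calls (0.0855 and 0.0905 at the highest). The rat as a replicate block also ended that of Slc27a4, and both settings ended its call in SAHA rats alone (0.276 at the highest).

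Further falls in labelled CA1 were those of the glutamine transporter Slc38a3 (-0.32 ± 0.11, adjusted p = 0.0431, with 0.35 in labelled CA3 over all arrays and -0.18 without those that stand apart), Slc10a3 (-0.28 ± 0.09, adjusted p = 0.0413) and the lipocalin receptor Slc22a17 (-0.14 ± 0.05, adjusted p = 0.0471). Slc4a1ap, which is no carrier itself, fell by 0.12 (adjusted p = 0.0469). Each of these 4 calls ended under 2 to 5 of 7 alternatives. In vehicle rats alone 4 of 130 members were called (3.08%, against 6.44% of all probes): Slc29a2, Slc38a3 and Slc22a17 were lower and Slc6a8 was higher with RPC. In SAHA rats alone 1 was called, Slc27a4 (0.769%, against 2.51%).

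In labelled DG the falls included the glutamate loader of vesicles. Slc17a7 ran from 8.16 to 9.18 in RPC rats and from 8.54 to 9.72 in HC rats, and all 14 RPC values lay below the HC mean, with overlapping ranges. The difference was -0.43 ± 0.11 (1.35-fold, adjusted p = 0.0176, and 0.16 with the rat as a replicate block). Slc41a1, a magnesium carrier, was detected on 8 of 14 RPC arrays and on 14 of 14 HC arrays and fell by 0.47 (SE 0.12, adjusted p = 0.0159, and 0.292 with the rat block). The glucose transporter Slc2a3 fell by 0.25 (adjusted p = 0.0259) and Slc7a4 by 0.16 (adjusted p = 0.0379), calls that ended under 2 and 5 of 7 alternatives. Within SAHA rats 2 of 158 were called (1.27%, against 1.45% of all probes), Slc6a6 and the chloride-bicarbonate exchanger Slc4a2, which averaged 9.08 ± 0.13 in SAHA RPC and 8.70 ± 0.19 in SAHA HC (SD, n = 7 each, adjusted p = 0.0395). Within vehicle rats none was called, against 0.322% of all probes. An unadjusted p under 0.05 was found there for 14 of 158 members, beside 917 of 10858 probes.

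Some markers of other cells were also called with RPC, beside 13.7% of all probes in labelled CA1 and 4.05% in labelled DG. Only called markers are named, so they do not give the direction of a whole list. In labelled CA1 the called markers were Gjb6 (0.16), S100b (0.15) and Slc4a4 (0.48) of astrocytes, Mobp (0.31) of oligodendrocytes and Cldn5 (0.16) of endothelium, all higher, and in labelled DG Mobp (0.35), C1qb (0.15) and C1qc (0.17) of microglia and Trps1 (0.25) of CA3 neurons. Of 20 ion pump genes in labelled CA1, 5 were lower with RPC and 1 higher, and of 16 partners and regulators 4 were higher, among them Sgk1 at 0.23. Of all probes there, 7.31% were lower and 6.42% higher with RPC. The part of other cell types in the maze differences was not tested.

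In labelled CA3 limma called no member within vehicle rats (0.0189% of all probes) or within SAHA rats (0.0283%) either. An unadjusted p under 0.05 was found for 26 and 3 of 146 members, beside 2100 and 418 of 10594 probes. An alternative fit over all 84 arrays took the rat, inferred from drug, behaviour and number, as a replicate block. It shares 1 spread among the regions and called 32 members averaged over drug, 31 in vehicle rats and 0 in SAHA rats. The share of all probes that this fit called is not given here, so these counts say nothing particular about transporters. Levels of some members were scattered among RPC arrays. Slc48a1, which moves heme out of lysosomes, ran from 5.17 to 10.23 in RPC rats (median 9.04, detected on 10 of 14 arrays) and from 9.45 to 9.83 in HC rats (median 9.65, detected on 14). The difference of -1.42 missed the threshold (adjusted p = 0.158) and was 0.16 without the 7 arrays that stand apart (adjusted p = 0.248). The calcium exchanger Slc24a2 ran from 8.10 to 11.92 in RPC rats and from 10.55 to 11.91 in HC rats, with a difference of -0.99 that became 0.41 without those arrays. The differences of Slc38a10 were -0.59 with all arrays and -0.05 without those. The 3 members with the smallest p were Slc15a3 (0.50), a peptide and histidine carrier of lysosomes, Slc6a6 (0.27) and Slc6a7 (-0.46), with adjusted p of 0.142, 0.149 and 0.156. Without the 7 arrays that stand apart these differences were 0.09, 0.13 and -0.08 (adjusted p = 0.659, 0.458 and 0.658).

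**Figure D5:**
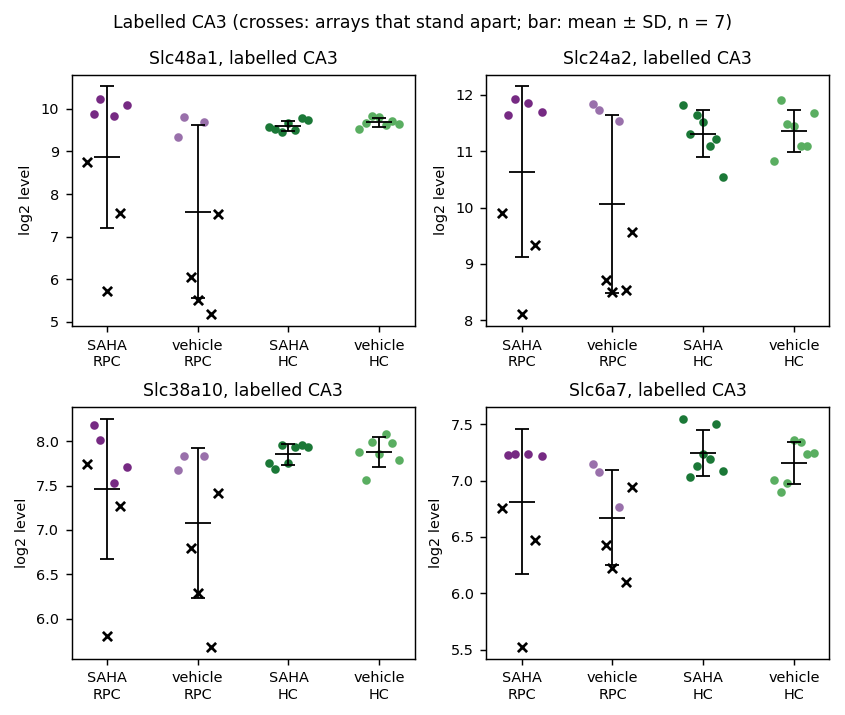
Log2 levels (y axis) of 4 members in labelled CA3 by treatment group (x axis), with arrays that stand apart as crosses and means ± SD over 7 arrays as bars. For Slc48a1 the crosses run from 5.17 to 8.75, while HC arrays sit between 9.45 and 9.83.

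An F test over all 84 arrays asked whether the RPC effect differs among regions. It called 12 of 163 members (7.36%, against 11.3% of all probes), with the largest F for Slc48a1 (10.03, adjusted p = 0.008), Slc22a17 (8.24), Slc25a35 (7.22), Slc38a10 (6.90) and Slc38a3 (6.64). Without the arrays that stand apart it called 7, and of the 12 Slc10a3 was the member still called: its effect was then -0.20 for labelled CA3, -0.27 for labelled CA1 and 0.10 for labelled DG (adjusted p = 0.0299). The F of Slc48a1 dropped to 0.17 there. Among the 7 was also Slc17a7, with 0.20 for labelled CA3, -0.45 for labelled CA1 and -0.43 for labelled DG (adjusted p = 0.0463).

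With SAHA 1 carrier was called, in labelled DG and averaged over behaviour. Slc7a5 (LAT1), which exchanges large neutral amino acids and lets leucine into the cell, ran from 8.85 to 9.55 in SAHA rats and from 8.84 to 9.21 in vehicle rats of labelled DG (medians 9.26 and 8.93, n = 14 each). Of the 14 SAHA values 9 exceeded every vehicle value, and the difference averaged over behaviour was 0.24 ± 0.06 (1.18-fold, adjusted p = 0.044). It made 1 of 158 members (0.633%), against 0.718% of all probes. The call ended under 4 of 7 alternatives, with adjusted p from 0.035 to 0.979. By behaviour the difference was 0.37 ± 0.08 in RPC rats (adjusted p = 0.0819) and 0.12 ± 0.08 in HC rats (adjusted p = 0.897). Levels in RPC rats were 9.25 ± 0.21 with SAHA and 8.89 ± 0.03 with vehicle (SD, n = 7 each). In labelled CA3 it was also 0.24, with a SE of 0.17 (adjusted p = 0.956), and in labelled CA1 0.04.

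In the other regions no member was called with SAHA averaged over behaviour, against 0.00944% of all probes in labelled CA3 and 0.0907% in labelled CA1. There 2 of 146 and 10 of 130 members had an unadjusted p under 0.05, beside 174 of 10594 and 891 of 9919 probes. Among the members the smallest p belonged to Slc31a2, which carries copper (0.35, adjusted p = 0.956), in labelled CA3, and to Slc25a20, the carnitine and acylcarnitine carrier (0.18, adjusted p = 0.167), in labelled CA1. Within HC rats or within RPC rats limma called no member in any region, against 0 to 0.00944% of all probes in labelled CA3, 0.0101% and 0.0605% for labelled CA1, and 0.0276% and 0.0829% for labelled DG. In these comparisons 1 to 14 members had an unadjusted p under 0.05, beside 52 to 1049 of all probes tested. The interaction of drug and behaviour called none (0 of all probes in labelled CA3, 0.0101% for labelled CA1 and 0.00921% for labelled DG), and unadjusted p under 0.05 were found for 1 member in labelled CA3, 10 in labelled CA1 and 8 in labelled DG. The F test of whether the SAHA effect differs among regions called 0 of 163 members and 0 of 11403 probes, while 3 members and 337 probes had an unadjusted p under 0.05. Differences below the threshold do not show that levels were equal.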

How the data were processed

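RNA (0.5 µg per sample) was read on Illumina rat bead arrays, scanned with GenomeStudio 2011.1 per the submitters' processing notes. The deposited table gives a non-normalised signal intensity (36 to 41948) and a detection p-value for each probe and array. Entries of exactly 0.01 (29.84%) were read as 0, since the smallest other deposited p-value is 0.0012. The authors also deposited a score per probe and array, a z-score of the log10 signal within its array, which a recomputation matched to within 0.01302.

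Signals were corrected with normexp from the detection p-values (offset 16), put on the log2 scale and quantile-normalised over 84 arrays (R 4.3.3, limma 3.58.1, data.table version 1.17.8). From the deposited intensities, lmFit and eBayes with a trend gave log2 differences, called at an adjusted p under 0.05 over all probes detected (p under 0.01) on at least 7 arrays of the fit. Regions were compared over 84 arrays, drug and behaviour within a region, and F tests over all regions. Levels of different probes were not compared. Where a probe was detected on no array of a region, a lower bound ("at least") replaces the fold. Nothing says how arrays were placed on slides, so no slide term was fitted. The platform annotation names each probe's gene.

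The members, classes and lists were chosen with earlier results of these data known. Named genes are the 8 largest called differences in each direction for regions, the called members for drug and behaviour (else the 3 smallest p), the 2 brightest members and up to 3 largest region differences of each class, the 5 largest F values for a region difference, and preset genes. The scripts were tested on simulated data. Rats in a group are separate animals, and their number limits the precision. Samples of a number deviated together no more than others (mean correlation of the 4 groups -0.151 to 0.26), so numbers were not taken to pair samples. Arrays of the same drug, behaviour and number had mean correlations across the 3 regions from -0.219 to 0.234. The rat block rests on that number, since no label names the rat. Alternatives were median scaling, no background correction, the z-scores, no filter, leaving out the arrays that stand apart (over 5 median absolute deviations) and 2 replicate blocks.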

Additional observations from a re-analysis of the deposited data

Results flagged for a closer look

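Of 76 sets of 7 arrays behind the named drug and behaviour results, 5 held an array far from the rest by Dixon's test (gap over range above 0.568), and chance alone gives some. In labelled CA1, Slc25a25 was highest in SAHA HC replicate 5 (11.17, next 10.73) and Slc6a8 in vehicle RPC replicate 1 (10.68, next 10.32). In labelled DG, Slc6a6 was lowest in SAHA RPC replicate 2 (8.68, next 9.15) and highest in vehicle RPC replicate 7 (9.51, next 9.23). Slc17a7 was lowest there in vehicle HC replicate 2 (8.54, next 9.35).

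The RPC effect differed among regions by the F test for 12 members. F was 10.03 for Slc48a1, 8.24 for Slc22a17, 7.22 for Slc25a35, 6.90 for Slc38a10, 6.64 for Slc38a3, 6.48 for Slc49a4 and for Slc35a3, and 6.42 for Slc26a1. It was 6.31 for Slc10a3, 5.89 for Slc24a2, 5.87 for Slc6a7 and 5.64 for Slc6a8. Without the 10 arrays that stand apart, Slc10a3 was the 1 of these 12 still called.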

How the results depend on the processing

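The 48 largest differences between regions kept direction and call under every alternative, and no called difference with drug or behaviour turned its sign. Among the other region differences given, median scaling turned those of labelled CA3 minus DG for Slc3a2 (0.02), Slc7a5 (0.18) and Slc17a7 (0.08) and ended the call of Slc20a2 (0.13), and the z-scores turned that of CA3 minus CA1 for Slc12a5 (-0.03). Uncalled RPC differences in labelled CA3 turned without the arrays that stand apart for Slc48a1 (0.16), Slc24a2 (0.41), Slc38a3 (-0.18), Slc25a25 (-0.04) and Slc10a3 (-0.20), and that of Slc27a4 with median scaling (0.07) and without background correction (0.01). With median scaling, RPC calls averaged over drug numbered 4 in labelled CA1 (10 as reported), 1 in labelled CA3 (0) and 4 in labelled DG (7). In labelled CA1 they were 0 in vehicle rats (4) and 0 in SAHA rats (1), in SAHA rats of labelled DG 1 (2), and with SAHA averaged over behaviour in labelled DG 0 (1). Without the filter on dim probes the counts were 5 and 4 averaged over drug in labelled CA1 and DG, 0 in vehicle rats of labelled CA1, 1 in SAHA rats of labelled DG, 0 for SAHA in labelled DG and 5 for the F test (12). The z-scores gave 1 in vehicle rats of labelled CA1 and 0 for SAHA in labelled DG. Without the arrays that stand apart there were 2 in vehicle and 5 in SAHA rats of labelled CA1, and 7 by the F test. The cause of these changes was not tested. With the rat as a replicate block over all 84 arrays (estimated correlation -0.011), RPC calls were 6 averaged over drug and 0 in SAHA rats of labelled CA1, 32 averaged and 31 in vehicle rats of labelled CA3, and 1 averaged and 1 in SAHA rats of labelled DG, with 0 for SAHA in labelled DG. That fit shares 1 spread over regions, and the shares of all probes that it called are not given here. With the number as a replicate block, SAHA rats of labelled CA1 gave 2. Dim probes limit folds to bounds.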

Other observations

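Single transporters outside the Slc symbols were also called with region or maze. The efflux pump gene Abcb1b was higher in labelled CA1 than labelled DG by 2.16 on the log2 scale, and the water channel Aqp4 was lower (-1.28). With RPC in labelled CA1, 0 of 27 tested were higher and 2 lower, the vesicle protein Sv2a (-0.24) and Abcg4 (-0.26). Of all probes there, 6.42% were higher and 7.31% lower, so these counts do not stand out. In labelled DG Sv2b (0.25) and Mfsd2a (0.22), a lipid carrier of the blood-brain barrier, were higher with RPC, as were 2.99% of all probes.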
